A study of Homo sapiens with 8 samples.

Results

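Tight junction genes were described by RNA sequencing in KYSE70 and KYSE450, 2 human cell lines derived from squamous carcinoma of the esophagus. The 9 genes were chosen by symbol: the junctional adhesion molecule gene F11R, the occludin gene OCLN, the claudin genes CLDN1, CLDN4, CLDN7 and CLDN12, the zonula occludens genes TJP1 and TJP3, and the cingulin gene CGN. They were chosen with earlier results of these data known and are 9 of 48162 genes listed in every library. F11R was listed under 2 identifiers, and the entry with the higher mean, ENSG00000158769, was used; the other entry stood at 0 to 0.26 FPKM. The study raised or lowered the long noncoding RNA NMR in both lines at passages 5 to 10. The overexpression libraries came from cells given a pcDNA3.1 plasmid vector with Lipofectamine 3000, and their control libraries form the plasmid arm with them. The knockdown libraries came from cells infected with lentivirus made in HEK 293T cells, and their control libraries form the lentiviral arm. The labels name neither the insert of the controls nor the sequence that targets NMR. Each of the 4 groups has 1 library per line, 8 in all, so the 2 libraries of a group are 2 different lines.

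A tight junction seals the space between neighbouring epithelial cells near their apical side. Claudins form the strands and set which ions can pass, while occludin and the junctional adhesion molecules sit beside them in the membrane. The zonula occludens proteins tie the strands to actin, and cingulin links the same plaque to the cytoskeleton and to signalling through small GTPases. In stratified squamous epithelium, such as the lining of the esophagus, tight junctions are confined to the upper living layers.

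Values were taken as FPKM, which divides a gene's reads by its length and by the library's size. On that reading, levels of different genes can be set side by side. Recovered read totals were 26401805 to 37937856 per library. Of 8 squamous markers, 7 or 8 were at 1 FPKM or more in every library and none was at 0. KRT17 stayed below 1 FPKM in the KYSE70 libraries. The summed level of the 8 markers was 7576 to 15550 FPKM in KYSE70 and 9668 to 26027 FPKM in KYSE450. Markers of simple or glandular epithelium, led by KRT8, summed to 540 to 1178 FPKM in KYSE70 and 670 to 1780 FPKM in KYSE450, and fibroblast markers to 27.1 to 52.3 FPKM. Leukocyte markers summed to at most 1.39 FPKM and endothelial markers to at most 4.52 FPKM in any library. The KYSE70 knockdown library stood apart: mitochondrial transcripts made up 8.63% of its summed FPKM, and 3.84% to 5.75% in the remaining 7. No listed gene carries the name NMR, so neither manipulation was checked on its target.

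F11R was the most abundant of the 9 genes in both lines, with a mean of 52.2 FPKM in KYSE70 and 114 FPKM in KYSE450. In KYSE70 it was followed by TJP1 at 30.0, CLDN12 at 23.9, OCLN at 7.76, CLDN4 at 6.24, CLDN1 at 3.99, CGN at 3.86, TJP3 at 3.10 and CLDN7 at 0.104 FPKM. Neighbours in that order had overlapping ranges over the 4 libraries except at 3 steps, between F11R and TJP1, between CLDN12 and OCLN, and between TJP3 and CLDN7. In KYSE450 the order after F11R was CLDN12 at 56.3, TJP1 at 36.5, CLDN1 at 34.4, CLDN7 at 14.2, OCLN at 9.80, CGN at 8.84, CLDN4 at 2.72 and TJP3 at 0.993 FPKM. There the ranges overlapped between TJP1 and CLDN1, between CLDN7 and OCLN, and between OCLN and CGN, and at no other step. Among the 4 claudins of the 9 genes, CLDN12 led in both lines, and the lowest mean was that of CLDN7 in KYSE70 and CLDN4 in KYSE450.

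**Figure D1:**
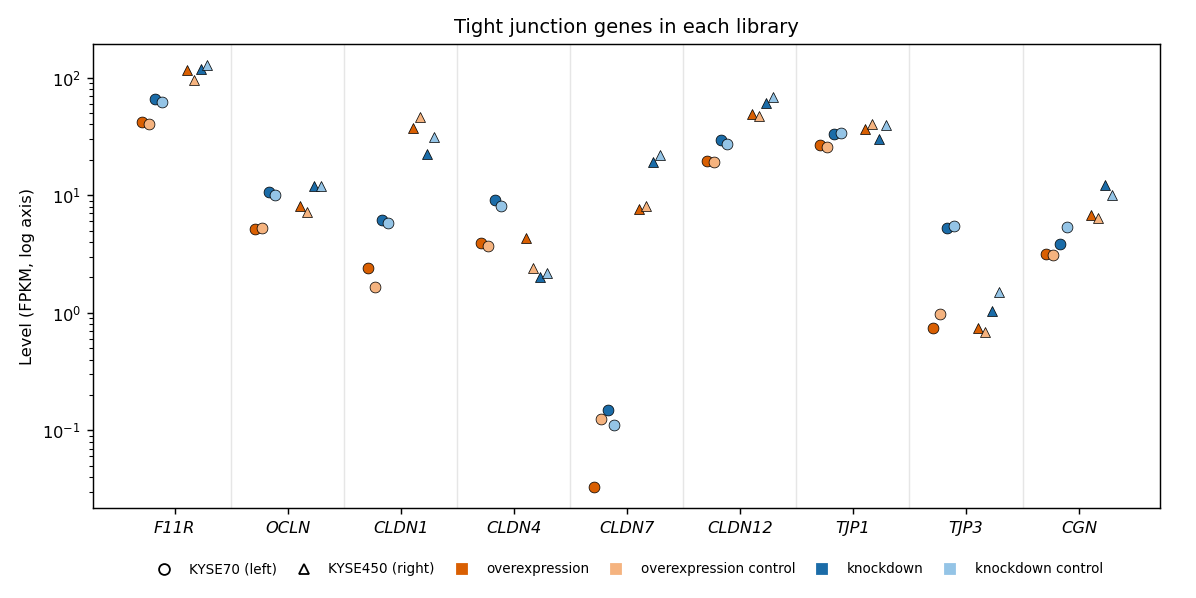
Level of each tight junction gene in each of the 8 libraries, in FPKM on a log axis; circles on the left of each gene are KYSE70 and triangles on the right are KYSE450, and colours give the 4 groups with no error bars because each point is 1 library. CLDN7 lies between 0.0328 and 0.149 FPKM in KYSE70 and between 7.66 and 21.9 FPKM in KYSE450, and the blue lentiviral points of TJP3 in KYSE70 stand above its other points.

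The widest differences between the lines lay in the claudins. CLDN7 and CLDN1 were lower in KYSE70, with differences of -3.64 and -2.91 on the log2(FPKM + 1) scale, and CLDN12, F11R and CGN followed at -1.21, -1.14 and -0.99. CLDN4 was higher in KYSE70, and OCLN, TJP1 and TJP3 did not pass the test. In all, 6 of the 9 genes were called between the lines, 5 lower and 1 higher in KYSE70 (limma, Benjamini-Hochberg adjusted p under 0.05). Across all 14311 genes tested, 27.4% were called lower and 26.6% higher in KYSE70, 54% in all, so a call by itself is common in this comparison. The median log2 difference of the 9 genes was -0.99, against -0.02 over all genes tested. Because the 9 genes were chosen with earlier results known, this and later comparisons with all genes describe the set and test nothing.

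CLDN7 encodes a claudin of the lateral membrane that binds the surface protein EPCAM. It had 0.0328, 0.125, 0.149 and 0.112 FPKM in the KYSE70 libraries of overexpression, its control, knockdown and its control, against 7.66, 8.09, 19.0 and 21.9 FPKM in KYSE450 in the same order. Those KYSE70 values are 1, 4, 4 and 3 recovered reads, against 228, 223, 564 and 846 reads in KYSE450. Every KYSE70 library was thus at or near the limit of detection, and the lines did not overlap. Over the 4 libraries of each line, the level in KYSE70 was 0.00697 of that in KYSE450, with an exact 95% interval of 0.00359 to 0.0122 that covers counting error only. The fitted log2 difference was -3.64 (SE 0.27, limma adjusted p = 5.95e-05); it is bounded by the added pseudocount of 1 FPKM. CLDN7 passed the filter on low values only through KYSE450, and its presence among the tested genes is no separate evidence of a difference. Its exons share 38 bases with ELP5 on the opposite strand, a gene at 36.2 to 85.6 FPKM. They also share 269 bases with AC003688.1 on the same strand, a gene at 0 FPKM. Whether the counting used strand, and how reads in shared bases were counted, is not stated in these sources. A few reads in KYSE70 thus cannot be assigned with certainty.

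The promoter windows below, 250 bases before to 50 bases after a RefSeq start on GRCh38.p14, are shown because CLDN7 and CLDN1 carried the widest line differences and OCLN was the gene called between the delivery arms. Capitals mark the E-box CACCTG or its reverse complement CAGGTG, the letters bound by the ZEB and Snail repressors; each line reads 5′ to 3′ on the strand of the gene. CLDN7 has a pair of windows on the minus strand, at chr17:7263164-7263463 and chr17:7262429-7262728, CLDN1 lies at chr3:190322397-190322696 on the minus strand, and OCLN at chr5:69492540-69492839 on the plus strand.
CLDN7 upstream window: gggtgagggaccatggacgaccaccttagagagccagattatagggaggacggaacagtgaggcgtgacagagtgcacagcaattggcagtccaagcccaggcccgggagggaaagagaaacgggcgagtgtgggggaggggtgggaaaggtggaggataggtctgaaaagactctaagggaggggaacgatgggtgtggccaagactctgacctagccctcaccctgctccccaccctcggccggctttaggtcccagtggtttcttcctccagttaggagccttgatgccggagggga
CLDN7 downstream window: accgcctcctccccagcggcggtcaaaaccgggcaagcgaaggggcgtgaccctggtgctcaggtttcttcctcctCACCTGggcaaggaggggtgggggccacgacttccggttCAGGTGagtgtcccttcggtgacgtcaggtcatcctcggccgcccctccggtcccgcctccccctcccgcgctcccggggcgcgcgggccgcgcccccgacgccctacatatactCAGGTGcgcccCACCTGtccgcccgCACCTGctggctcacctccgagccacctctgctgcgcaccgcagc
CLDN1 window: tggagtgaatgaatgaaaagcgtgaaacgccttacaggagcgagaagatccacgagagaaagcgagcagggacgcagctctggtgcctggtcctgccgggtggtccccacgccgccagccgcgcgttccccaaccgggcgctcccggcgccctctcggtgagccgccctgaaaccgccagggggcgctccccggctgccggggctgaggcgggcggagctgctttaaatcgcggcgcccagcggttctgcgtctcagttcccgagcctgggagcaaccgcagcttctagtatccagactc
OCLN window: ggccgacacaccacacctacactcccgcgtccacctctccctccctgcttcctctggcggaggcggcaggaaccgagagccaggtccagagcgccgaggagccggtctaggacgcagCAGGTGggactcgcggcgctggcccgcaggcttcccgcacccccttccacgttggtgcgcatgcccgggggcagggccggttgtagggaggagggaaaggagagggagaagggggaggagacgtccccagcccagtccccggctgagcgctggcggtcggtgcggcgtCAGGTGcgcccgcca
The downstream CLDN7 window holds 5 of these E-boxes, the OCLN window 2, and the upstream CLDN7 and CLDN1 windows 0. Among 35116 promoter windows of the same length, 20.6% hold at least 1, 3.49% at least 2 and 0.094% at least 5. The upstream CLDN7 window, with 2 coding transcript starts and 0 E-boxes, was the one chosen for the gene. The downstream window, with 1 such start, was not the chosen one. Further windows not printed hold 1 E-box each for OCLN, TJP1 and TJP3, the printed OCLN window being the one with a coding start. Windows for 8 of the 9 genes were matched, F11R being the exception; the windows of CLDN1, CLDN4, CLDN12 and CGN hold 0. The grainyhead-like motif AACCNGTT, searched on both strands, occurs once in the CGN window, in none of the printed windows and in 1.73% of all windows. Such a match describes letters in a window and is not a measured binding site.

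CLDN1 encodes a claudin that is needed for the barrier of stratified epithelium such as epidermis. It had 2.38, 1.66, 6.14 and 5.79 FPKM in the KYSE70 libraries of overexpression, its control, knockdown and its control, against 37.5, 46.0, 22.6 and 31.4 FPKM in KYSE450. All 4 KYSE70 values lay below all 4 KYSE450 values, and its mean was 8.60-fold lower in KYSE70. The log2 difference was -2.91 (SE 0.39, 95% interval -3.82 to -1.99, limma adjusted p = 0.000854). The gap was wider in the plasmid arm, where KYSE70 stood at 0.0636 and 0.036 of the KYSE450 level, than in the lentiviral arm, where it stood at 0.272 and 0.185.

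CLDN12 encodes a claudin that lacks the usual motif binding the zonula occludens proteins. It had 19.6, 19.0, 29.6 and 27.4 FPKM in KYSE70, in the same order of groups, against 49.4, 47.1, 60.8 and 67.9 FPKM in KYSE450. The lines did not overlap, KYSE70 was lower in each of the 4 groups, and the log2 difference was -1.21 (SE 0.12, limma adjusted p = 0.000187). CLDN12 shares exon bases with GTPBP10 and CDK14 on its own strand, and how reads in those bases were counted is not stated.

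CLDN4, a claudin known for tightening epithelia against sodium, ran the other way. It had 3.93, 3.71, 9.16 and 8.14 FPKM in KYSE70, against 4.31, 2.41, 2.00 and 2.17 FPKM in KYSE450. The lines overlapped: KYSE70 was slightly lower in the overexpression libraries and higher in the other 3 groups. The log2 difference was 0.91 (SE 0.32, 95% interval 0.15 to 1.67, limma adjusted p = 0.0472). The call is lost with no filter on low values, in the 4 control libraries alone and without any one of the 4 lentiviral libraries, where the adjusted p was 0.163 to 0.186; over all alternatives it ran from 0.00776 to 0.186.

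F11R encodes the junctional adhesion molecule JAM-A, an immunoglobulin-like protein that helps recruit polarity proteins to the junction. It had 41.6, 40.0, 65.6 and 61.6 FPKM in KYSE70, against 116, 95.3, 118 and 128 FPKM in KYSE450. KYSE70 was below KYSE450 throughout, with a log2 difference of -1.14 (SE 0.13, limma adjusted p = 0.000488). The exons of F11R share 1853 bases with AL591806.3 on the same strand, a gene at 0 to 0.26 FPKM. That is the same range as the F11R entry that was not used. How reads in those bases were counted is not stated.

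OCLN, the first transmembrane protein found at tight junctions, was nearly level between the lines. It had 5.16, 5.30, 10.5 and 10.0 FPKM in KYSE70, against 8.02, 7.22, 11.9 and 12.0 FPKM in KYSE450. KYSE70 was lower in each group, but its lentiviral libraries lay above the plasmid libraries of KYSE450, and the log2 difference of -0.33 was not called (SE 0.14, 95% interval -0.67 to 0.01, limma adjusted p = 0.0876). A pseudogene copy of OCLN, listed under ENSG00000230847, stood at 0 FPKM in KYSE70 and at 0.151 to 0.201 FPKM in KYSE450; how reads matching both were counted is not stated either.

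Of the plaque genes, only CGN was called. CGN had 3.17, 3.12, 3.84 and 5.32 FPKM in KYSE70, against 6.72, 6.35, 12.3 and 9.98 FPKM in KYSE450, without overlap. Its log2 difference was -0.99 (SE 0.17, limma adjusted p = 0.00273), and in the 4 control libraries alone it was -0.82 with an adjusted p of 0.053, the highest over its alternatives, which reached down to 0.00285. TJP1, which encodes ZO-1, had 26.7, 25.7, 33.4 and 34.0 FPKM in KYSE70, against 36.3, 40.2, 30.2 and 39.4 FPKM in KYSE450. The lines overlapped and TJP1 was not called (log2 difference -0.28, 95% interval -0.64 to 0.08, limma adjusted p = 0.16). Without either knockdown library it was -0.42 and called; over all alternatives its adjusted p ran from 0.0361 to 0.514.

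TJP3, which encodes ZO-3, the zonula occludens protein most restricted to epithelia, had 0.736, 0.98, 5.25 and 5.42 FPKM in KYSE70, against 0.738, 0.683, 1.04 and 1.51 FPKM in KYSE450. The lentiviral KYSE70 libraries were the highest of the 8, and the plasmid KYSE70 libraries lay among the KYSE450 values. The log2 difference between the lines was 0.80 (SE 0.30, limma adjusted p = 0.0573). It was called under median-ratio scaling, with voom on recovered reads and without any one of the plasmid libraries, with adjusted p values over all alternatives of 0.0175 to 0.209. All 4 KYSE70 libraries were below all 4 KYSE450 libraries for 5 of the 9 genes, CLDN1, CLDN7, CLDN12, CGN and F11R, against 24.5% of all genes tested, and above them for 0, against 24.1%. In RNA from whole cultures, fewer cells with a transcript and less of it per cell cannot be told apart.

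Other genes of the junction were set beside the 9, against the same shares over all genes tested, 27.4% called lower and 26.6% higher in KYSE70. Of 19 other claudin genes listed, 4 passed the filter on low values, and these 4 were called lower in KYSE70. CLDN11, CLDN3 and CLDN20 passed it through KYSE450, being below 1 FPKM on average in KYSE70, so the direction of their count is largely set by the filter. CLDN11 averaged 0.053 FPKM in KYSE70 against 10.6 FPKM in KYSE450, with a log2 difference of -3.37 (SE 0.23, limma adjusted p = 4.14e-05), and CLDN3 averaged 0.33 against 2.18 FPKM (log2 difference -1.16, adjusted p = 0.0118). CLDN20 and CLDN15 differed by less, with log2 differences of -0.55 and -0.46. Among 7 tested genes of other tight junction membrane proteins, 4 were called lower and 2 higher. CRB3, an apical polarity protein, stood at 1.41 against 16.9 FPKM (log2 difference -2.97) and MARVELD3, a relative of occludin, at 5.23 against 18.3 FPKM (log2 difference -1.66). JAM3, another junctional adhesion molecule, was higher in KYSE70 with a log2 difference of 1.33 (SE 0.17, limma adjusted p = 0.000816).

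Scaffold and polarity genes had 8 of 21 called lower and 2 higher in KYSE70, beside 27.4% and 26.6% of all genes tested. Their median log2 difference was -0.07, against -0.02 over all genes tested. MAGI1, a junctional scaffold, was lower with a log2 difference of -1.72. YBX3, a transcription factor that binds ZO-1, was lower with a log2 difference of -1.16. AMOTL2, an angiomotin relative that binds junctional scaffolds, was higher in KYSE70 with a log2 difference of 1.71 (SE 0.20, limma adjusted p = 0.000532).

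EPCAM, a surface protein that binds and stabilises claudin-7, was abundant in both lines and lower in KYSE70, at 235 FPKM in KYSE70 against 390 FPKM in KYSE450 (log2 difference -0.73, limma adjusted p = 0.00383). KYSE70 thus had a high EPCAM level beside 12 recovered CLDN7 reads over its 4 libraries.

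Of 10 tested regulators, 7 were called lower and 2 higher in KYSE70, beside 27.4% and 26.6% of all genes. GRHL2, ESRP1 and TWIST1 passed the filter through KYSE450 and ZEB1 through KYSE70, so these counts too are partly set by the filter. GRHL2, a grainyhead-like factor known to raise claudin genes in epithelia, averaged 0.136 FPKM in KYSE70 against 58.5 FPKM in KYSE450 (log2 difference -5.65, SE 0.23, limma adjusted p = 5.06e-06). ESRP1 and ESRP2, epithelial splicing regulators, stood at 0.254 against 90.0 FPKM and at 1.03 against 52.4 FPKM, with log2 differences of -6.16 and -4.73. TWIST1, a factor known to repress epithelial genes, was also lower, at 0.062 against 18.2 FPKM (log2 difference -4.18). The genes called higher in KYSE70 were ZEB1, a repressor of epithelial genes, and GRHL3, another grainyhead-like factor; both were named after their values were seen. ZEB1 averaged 6.81 FPKM in KYSE70 against 0.273 FPKM in KYSE450, with a log2 difference of 2.59 (SE 0.19, limma adjusted p = 5.3e-05), and GRHL3 averaged 21.1 against 4.56 FPKM (log2 difference 2.25, adjusted p = 0.00284). With 2 lines, all these genes differ along 1 contrast, and whether any of them bears on the tight junction genes was not tested.

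**Figure D2:**
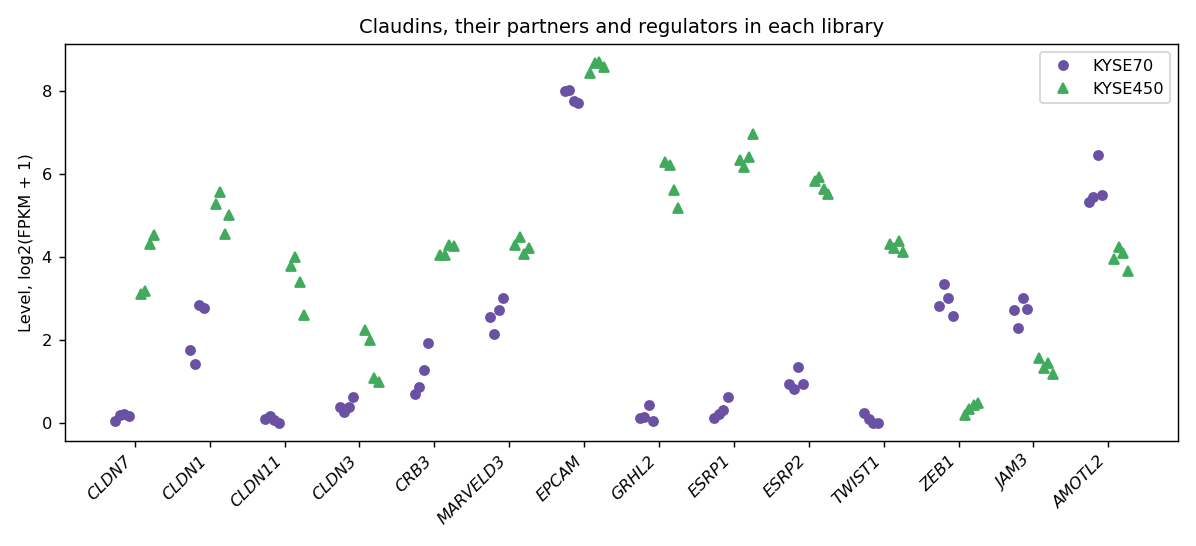
Level of CLDN7, CLDN1 and other tight junction genes, claudin partners and regulators in log2(FPKM + 1); each point is 1 library, with 4 KYSE70 libraries (circles, left) and 4 KYSE450 libraries (triangles, right) per gene. GRHL2 and ESRP1 are near 0 in KYSE70 and above 5 in KYSE450, while ZEB1, JAM3 and AMOTL2 are higher in KYSE70.

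The delivery arms were compared next, with lentiviral libraries set against plasmid libraries of the same line. OCLN was higher in the lentiviral arm in both lines, averaging 1.97-fold the plasmid level in KYSE70 and 1.57-fold in KYSE450. TJP3 averaged 6.21-fold the plasmid level in KYSE70 and 1.80-fold in KYSE450. CLDN1 and CLDN4 stood at 2.96-fold and 2.26-fold in KYSE70, and below the plasmid level, at 0.646 and 0.622 of it, in KYSE450. OCLN was the 1 of 9 genes called (log2 difference 0.72, SE 0.14, 95% interval 0.39 to 1.06, limma adjusted p = 0.0465), against 4.02% of all genes tested. The OCLN call is not stable: it is lost under median-ratio scaling, with no filter and without the replicate block (adjusted p = 0.681), and without any one library other than the KYSE450 knockdown library. Over these alternatives its log2 difference stayed between 0.62 and 0.81 and its adjusted p ran from 0.0302 to 0.681.

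All 9 genes had a log2 difference above 0 between the arms, with a median of 0.47 against 0.07 over all genes tested. Under median-ratio scaling the median over all genes was -0.02, TJP1 fell on the other side of 0 at -0.01 and the other 8 genes kept a difference above 0. In KYSE70, both lentiviral libraries exceeded both plasmid libraries for 8 of the 9 genes, against 42.7% of all genes tested. In KYSE450 the same held for 6 genes, against 35.2% of all genes, and the opposite held for CLDN1 and CLDN4, against 32.3%. In both lines at once, 5 genes, CLDN12, OCLN, TJP3, CGN and F11R, were higher in the lentiviral arm without overlap, against 20% of all genes. For F11R and CLDN12 the lentiviral level was 1.17-fold to 1.56-fold the plasmid level in the lines.

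**Figure D3:**
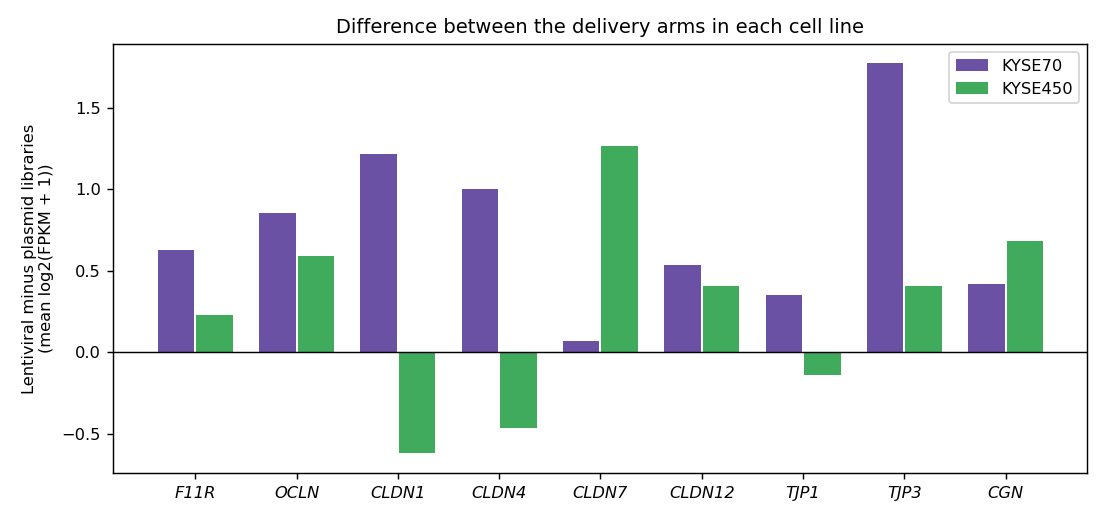
Difference between the delivery arms for each tight junction gene, as the mean log2(FPKM + 1) of 2 lentiviral libraries minus that of 2 plasmid libraries, with KYSE70 bars left of KYSE450 bars and no error bars. CLDN1 and CLDN4 bars point up in KYSE70 (1.22 and 0.999) and down in KYSE450 (-0.62 and -0.46), CLDN7 rises to 1.27 in KYSE450 and TJP3 to 1.77 in KYSE70.

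The knockdown controls set against the overexpression controls use 4 of the same 8 libraries, so they are no separate support. There, 9 of 9 genes lay above 0 with a median log2 difference of 0.51, beside 8262 of 14311 genes and a median of 0.07 over all genes. None of the 9 was called, nor was any of the 14311 genes (0% called by limma; 14.5% had an unadjusted p under 0.05, as did 5 of the 9 genes). With voom on recovered reads, 0 genes were called as well. OCLN, TJP3 and CLDN12 had log2 differences of 0.74, 1.14 and 0.51 between these controls. Over all libraries of the arms, which include the controls, they had 0.72, 1.09 and 0.47. The part of the manipulations in the arm difference was not tested. Vector, delivery and any difference in culture between the arms cannot be told apart. Summed squamous markers, led by KRT5, were lower in the lentiviral libraries of both lines. The sums were 7576 and 9569 FPKM in the lentiviral against 12429 and 15550 FPKM in the plasmid libraries of KYSE70. In KYSE450 they were 9668 and 13401 against 18634 and 26027 FPKM. The markers did not all follow the sum. TP63 had 218 and 346 FPKM in the lentiviral against 140 and 189 FPKM in the plasmid libraries of KYSE70. In KYSE450 TP63 had 654 and 439 against 233 and 307 FPKM. DSG3 and KRT14 overlapped between the arms in both lines. Glandular markers were 670 and 1233 FPKM in the lentiviral against 1451 and 1780 FPKM in the plasmid libraries of KYSE450, and 540 and 1178 against 949 and 990 FPKM, overlapping, in KYSE70. The part of these markers in the difference between the arms was not tested.

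The arm difference itself differed between the lines for 4 of the 9 genes, against 6.37% of all genes tested. The gap lay toward KYSE70 for 3 of them, against 4.84% of all genes, and toward KYSE450 for 1, against 1.54%. For CLDN1 the log2 difference was 1.22 in KYSE70 and -0.62 in KYSE450, so the lines parted by 1.84 (SE 0.31, 95% interval 1.11 to 2.56, limma adjusted p = 0.0246). CLDN4 behaved alike, with 0.999 in KYSE70 and -0.46 in KYSE450, a gap of 1.46 (SE 0.28, limma adjusted p = 0.0349). TJP3 was above 0 in both lines, at 1.77 in KYSE70 and 0.40 in KYSE450, and the gap of 1.37 was called (SE 0.25, limma adjusted p = 0.0306). The same term says that the difference between the lines depends on the arm: KYSE70 held 3.74 and 4.57 times the KYSE450 level of CLDN4 in the lentiviral arm, and 0.913 and 1.54 times in the plasmid arm.

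CLDN7 was called in the opposite direction, with 0.07 in KYSE70 and 1.27 in KYSE450, a gap of -1.20 (SE 0.24, limma adjusted p = 0.0373). In KYSE70 that comparison rests on 7 reads in the lentiviral against 5 in the plasmid libraries, where a pseudocount of 1 FPKM holds any difference near 0. As a ratio of mean levels, the lentiviral arm stood at 1.65-fold in KYSE70 and 2.59-fold in KYSE450, and voom on recovered reads gave a gap of -0.63 with an adjusted p of 0.615, in a range of 0.00149 to 0.615 over the alternatives. CLDN7 was higher in both lentiviral libraries of KYSE450, at 19.0 and 21.9 FPKM against 7.66 and 8.09 FPKM in the plasmid libraries; a different response in KYSE70 cannot be read from so few reads.

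The calls on these 4 genes depend on the processing. With no filter on low values 0 of the 9 were called, and leaving out any one plasmid library left 1. CLDN1 kept its call under median-ratio scaling, with a pseudocount of 0.1, with a mean of at least 5 FPKM and with voom, and lost it with no filter and without either overexpression control library (adjusted p from 1.49e-05 to 0.179 over the alternatives). Of all genes called, 692 lay higher and 220 lower, 75.9% higher, in the deposited scaling, and 471 and 509, 48.1% higher, under median-ratio scaling, with median gaps over all genes of 0.12 and -0.05. The gaps of CLDN1, CLDN4 and TJP3 under median-ratio scaling were 1.68, 1.28 and 1.23, and all 3 were called. CLDN4 lost its call with no filter and without either overexpression library (adjusted p from 0.000504 to 0.25 over the alternatives). TJP3 lost it with a pseudocount of 0.1, with voom, with no filter and without any one plasmid library (0.000725 to 0.187).

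Outside the 9 genes, 2 listed genes were called between the arms, both higher in the lentiviral libraries: ARHGEF2, a guanine nucleotide exchange factor held at the junction by cingulin (log2 difference 1.02, SE 0.20, limma adjusted p = 0.0478), and GRHL1, a grainyhead-like factor (0.94, SE 0.16, adjusted p = 0.0352). Genes with a called gap between the lines in the arm difference included CLDN3 (1.27), the polarity gene PARD3B (2.36), GRHL3 (1.93) and the repressor gene SNAI2 (1.11), in each case toward KYSE70 (limma adjusted p 0.00827 to 0.0371). GRHL3 had 20.2 and 24.5 FPKM in the lentiviral against 19.6 and 20.1 FPKM in the plasmid libraries of KYSE70, and 1.51 and 1.505 against 8.16 and 7.06 FPKM in KYSE450. CLDN3 likewise stood at 1.10 and 0.971 FPKM in the lentiviral against 3.68 and 2.99 FPKM in the plasmid libraries of KYSE450.

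Genes with the most similar profile over the 8 libraries, after each line's mean was taken away, were sought for the 4 members whose profile spanned at least 1 log2 unit. For CLDN1 these were KLHL3 and DQX1, each with a mean absolute difference of 0.125 log2 units. KLHL3 had 6.55 and 5.62 FPKM in the lentiviral against 1.91 and 1.99 FPKM in the plasmid libraries of KYSE70, and 2.61 and 3.58 against 5.57 and 5.15 FPKM in KYSE450. For CLDN4 they were RP11-7K24.3 and LAMB2, a laminin chain, at 0.076 and 0.081, for CLDN7 RBM11 and STEAP2 at 0.040 and 0.064, and for TJP3 PMEL and RAB6B at 0.097 and 0.10. LAMB2 had 144 and 124 FPKM in the lentiviral against 63.2 and 70.3 FPKM in the plasmid libraries of KYSE70, and 65.0 and 59.1 against 109 and 78.8 FPKM in KYSE450. STEAP2, like CLDN7, was near 0 in KYSE70 and had 31.4 and 37.4 FPKM in the lentiviral against 12.3 and 11.5 FPKM in the plasmid libraries of KYSE450.

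NMR overexpression left the 9 genes without a call. CLDN4 had the largest difference, with 3.93 FPKM in the overexpression library against 3.71 FPKM in its control in KYSE70, and 4.31 against 2.41 FPKM in KYSE450. It was higher in both lines, and its log2 difference of 0.35 was not called (SE 0.20, 95% interval -0.12 to 0.82, limma adjusted p = 1.0). F11R followed at 0.17, with 116 FPKM in the overexpression library against 95.3 FPKM in its control in KYSE450 and near-equal values in KYSE70. CLDN1 pointed in opposite directions, at 0.35 in KYSE70 and -0.29 in KYSE450. Of the 9 genes, 4 were higher in both lines (CLDN4, CLDN12, CGN and F11R) against 23% of all genes tested, and CLDN7 was lower in both against 27.6%. None of the 14311 genes was called (0%; 1.03% had an unadjusted p under 0.05, and 0 of the 9), and voom on recovered reads also called 0. The standard errors were 0.14 to 0.22, and the 95% intervals, each around its own gene's estimate, had their lowest bound at -0.50 for CLDN7 and their highest at 0.82 for CLDN4. A missing call with 1 library per line and group does not show that a gene did not change.

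Knockdown of NMR likewise gave no call among the 9 genes. TJP1 and TJP3 were lower in both lines, against 25.9% of all genes tested, and none was higher in both, against 27.1%. TJP1 had 33.4 FPKM in the knockdown library against 34.0 FPKM in its control in KYSE70, and 30.2 against 39.4 FPKM in KYSE450 (log2 difference -0.20, SE 0.15, 95% interval -0.56 to 0.17, limma adjusted p = 0.57). CLDN1 had 6.14 FPKM in the knockdown library against 5.79 FPKM in its control in KYSE70, and 22.6 against 31.4 FPKM in KYSE450 (log2 difference -0.19, limma adjusted p = 0.698). CGN moved opposite ways, with 3.84 against 5.32 FPKM in KYSE70 and 12.3 against 9.98 FPKM in KYSE450. The KYSE70 knockdown library is the one that stood apart in mitochondrial transcripts; its part in the CGN value was not tested. Over the 9 genes, log2 differences lay between -0.20 and 0.04 and the bounds of their 95% intervals between -0.70, for CLDN1, and 0.51, for CLDN4. Across all genes 0 were called by limma (0%; 12.5% had an unadjusted p under 0.05, and 0 of the 9), and voom on recovered reads called 4, none of them among the 9. The count over all genes was unstable: it was 37 in the 4 libraries of the lentiviral arm alone, and it moved with 1 library left out. Without a lentiviral library the knockdown term rests on the remaining pair of the other line. The counts from such fits do not describe knockdown over both lines. None of the 9 was called in any of these fits.

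**Figure D4:**
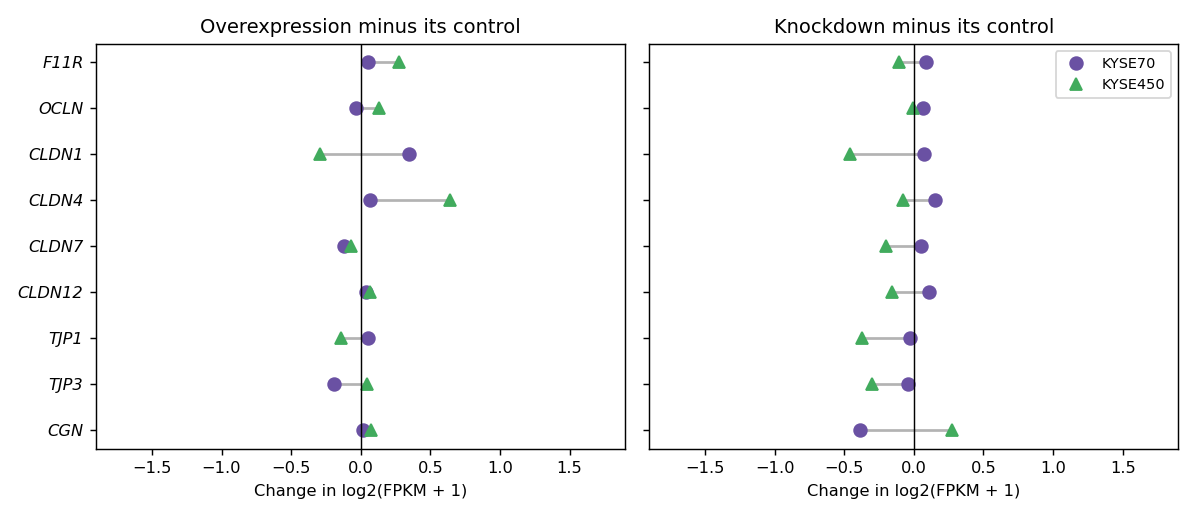
Change in log2(FPKM + 1) of each tight junction gene with overexpression (left panel) and knockdown (right panel) against the matched control; circles are KYSE70, triangles KYSE450, each is 1 library minus 1 library, and the grey line joins the lines. Points lie between -0.46 and 0.64, and most genes in the knockdown panel have their points on either side of 0.

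Listed genes outside the 9 gave no call for either manipulation. With overexpression, JAM3 and ZEB1 had the smallest p values of their lists, with log2 differences of 0.34 and -0.35. With knockdown, ILDR1, a tricellular junction gene, had a log2 difference of -0.58 (SE 0.17, limma adjusted p = 0.332), LSR, another tricellular gene, -0.56 and AMOTL2 0.70 (SE 0.17, limma adjusted p = 0.293). LSR in KYSE70 had 27.9 FPKM in the knockdown library against 60.5 FPKM in its control, while KYSE450 had 91.0 against 93.6 FPKM.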

How the data were processed

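RNA sequencing covered 8 libraries, and groups came from the sample titles. The deposited files give 1 value per gene, no header names its unit, and the values were taken as FPKM made by the authors. Every gene's values came out as whole multiples of 1 step per library (30872 of 30872 genes above 0 in at least 2 libraries, within 0.02 of a whole number). Many multipliers were tried per gene, so a gene above 0 in few libraries could pass without true steps. Whole steps point to scaled counts and do not name the unit. TopHat2 2.0.9, HTSeq 0.6.1 and the build hg19 appear in the submitters' processing notes; which annotation was used, and whether strand was, is not given in the sources used. Reads recovered from these steps cover counting error only.

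Genes with a mean of at least 1 FPKM, 14311 in all, were fitted as log2(FPKM + 1) with limma 3.58.1 (trend) in R 4.3.3, with Benjamini-Hochberg adjustment and a threshold of 0.05. Overexpression, knockdown and the gap between lines in the arm difference came from a model with 1 term per pair of manipulated and control library, 4 in all (2 residual degrees of freedom); cell line, arm and control comparisons came from a model of cell line and group (3 residual degrees of freedom). Both borrow spread across genes. The design assumed counts, and its fallback for FPKM was used. Same-numbered libraries come from the same line, per the labels, so the numbers pair them, and each model blocks on line. Nothing says the libraries came from separate cultures, so the p-values reflect a spread between libraries that may be technical. The limma script was tested on simulated data. Alternatives were median-ratio scaling, a pseudocount of 0.1, no filter, a mean of at least 5 FPKM, voom on recovered reads, no block, fewer libraries and leaving out each library.

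The 9 genes and the other gene lists were chosen with earlier results of these data known. Named outside the 9 were genes called in a comparison that called at least 1 of the 9, at most 4 per list in order of p, otherwise the 2 smallest p per list, and the 2 nearest profiles. Overlaps of exons came from GENCODE 29 and promoter sequences from RefSeq, both on GRCh38. Some genes that this rule names are not reported here.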

Additional observations from a re-analysis of the deposited data

Results flagged for a closer look

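Differences between the changes in KYSE70 and KYSE450 are given as KYSE70 minus KYSE450 in log2(FPKM + 1). The difference between the arms parted by 1.84 for CLDN1, 1.46 for CLDN4, 1.37 for TJP3 and -1.20 for CLDN7, each called by limma in a test of that gap. The CLDN7 value rests on 12 KYSE70 reads and the pseudocount, and with voom it was -0.63 with an adjusted p of 0.615, so it does not show that the lines differ. The remaining genes were noted because the lines moved in opposite directions, and those differences were not tested. With overexpression the gap was 0.64 for CLDN1, -0.17 for OCLN, 0.19 for TJP1 and -0.24 for TJP3. With knockdown it was 0.53 for CLDN1, 0.23 for CLDN4, 0.25 for CLDN7, 0.27 for CLDN12, 0.0747 for OCLN, -0.66 for CGN and 0.20 for F11R. Each of these rests on 1 library and 1 control per line. No gene had a single library far from the other 3 of its line by Dixon's 95% limit. With so few libraries per line that limit flags only extreme values, so it does not show that no library stands out.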

How the results depend on the processing

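Of the 9 genes, 6 were called between the lines, beside 7726 of all 14311 genes tested. With voom 7 were called, beside 7682 of all genes, and in the 4 control libraries alone 4, beside 5300. The count also moved with 1 library left out. The count called between the arms was 1, against 0 under median-ratio scaling, with no filter or without the replicate block, and 3 with voom. This count moved as well with 1 library left out. The count with a gap between lines in the arm difference was 4. It was 2 with a pseudocount of 0.1, 0 with no filter, 2 with a mean of at least 5 FPKM and 2 with voom. Leaving out 1 library moved it again. Calls over all genes moved too. Between the arms they were 575 of 14311 in the main fit, 482 under median-ratio scaling and 878 with voom. They were 0 there with no filter or without the replicate block. For the gap they were 912 of 14311 in the main fit, 726 with a pseudocount of 0.1 and 1014 with voom. With a mean of at least 5 FPKM the gap was called for 511 of 10384 genes, and with no filter for 0. At a mean of at least 5 FPKM, CLDN4 and TJP3 were not tested. For the gap no fit without the block was run. Overexpression, knockdown and the controls called 0 of the 9 under all alternatives run, the fits without the replicate block included. The cause of these shifts was not tested.

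Some uncalled log2 values changed sign. For overexpression and knockdown, leaving out a library of a pair leaves only the pair of the other line. The ends of those ranges are thus the differences within each line, and a sign change there repeats the opposite signs of the lines given above. With 1 library left out, overexpression ran from -0.29 to 0.35 for CLDN1, -0.0335 to 0.13 for OCLN, -0.14 to 0.0521 for TJP1 and -0.19 to 0.0465 for TJP3. Knockdown ran from -0.45 to 0.0726 for CLDN1, -0.0791 to 0.15 for CLDN4, -0.20 to 0.0475 for CLDN7, -0.16 to 0.11 for CLDN12, -0.0082 to 0.0665 for OCLN, -0.38 to 0.28 for CGN and -0.11 to 0.0891 for F11R. The arm difference ran from -0.12 to 0.71 for CLDN1, -0.0706 to 0.61 for CLDN4 and -0.0364 to 0.24 for TJP1. The control difference ran from -0.42 to 1.23 for CLDN1 and -0.0489 to 0.41 for TJP1. The gap ran from -0.005 to 0.26 for CLDN12 and -0.59 to 0.0654 for CGN. Voom turned CLDN1 to -0.11 with overexpression and -0.0563 between arms, and CGN to 0.027 with knockdown. A pseudocount of 0.1 turned CLDN7 to 0.0139 with knockdown. Median-ratio scaling turned TJP1 to -0.0079 between arms and the CLDN12 gap to -0.0654.

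The depth limits CLDN7 in KYSE70, at 1 to 4 reads a library, and TJP3 in plasmid libraries, at 36 to 60 reads. Leaving out 1 library leaves a lone library in a group, assumed to vary like the others.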
